A study of Rattus norvegicus and Bos taurus with 6 samples.

Results

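The VEGF and angiopoietin ligands and receptors are 10 genes that were matched by symbol in single-nucleus RNA-seq of adipose tissue. They are the VEGF ligands Vegfa, Vegfb and Vegfc, the VEGF receptors Flt1, Kdr and Flt4, the angiopoietins Angpt1 and Angpt2, and the Tie receptors Tek and Tie1. All 10 were present in each of the 6 libraries, among 25629 genes in the 10x rat annotation, 38697 in the Parse rat annotation and 36075 in the cow annotation. The study tested a nuclei isolation protocol for white fat, and its libraries came from male Dahl SS rats (strain SS/HsdMcwiCrl, Charles River) and from female lactating Holstein cows, all from snap-frozen tissue of animals labelled as normal. The rat depots were mesenteric perivascular adipose tissue (mesPVAT), retroperitoneal (RP) fat, the PVAT of the thoracic aorta (taPVAT) and subscapular brown fat (BAT), and the cow depot was subcutaneous white adipose tissue (cow WAT) of the flank. Batch 1 held 1 mesPVAT library made with the 10x 3' kit, and batch 2 held 1 Parse Evercode library of each of the 5 tissues. With 1 library per condition no test across samples was possible and no p-value is given, and how many animals stood behind a library was not given in the sources used here.

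Blood vessels in fat grow and persist under these ligands. Vegfa binds Kdr (VEGFR2), the main signalling receptor of endothelial cells, and Flt1 (VEGFR1), which binds it tightly and can act as a decoy, whereas Vegfb binds Flt1 and Vegfc binds Flt4 (VEGFR3), the receptor known for lymphatic vessels. Angpt1 activates Tek (Tie2) and stabilises vessels, Angpt2 is a context-dependent antagonist of it, and Tie1 is its orphan partner receptor. In fat, adipocytes are known as a source of Vegfa, and brown fat is known for its dense capillary bed.

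RefSeq promoters of the rat build GRCr8 were given for 7 of the 10 genes, and Angpt1, Angpt2 and Tek had none. The stretches before the annotated start of Vegfa, Kdr and Tie1 are shown because they belong to the ligand that was highest of the 4 classes in Plin1-only nuclei of all 6 libraries and to 2 receptors with their highest level in Pecam1-positive nuclei of the 3 deeper libraries. Capitals mark the GC box GGGCGG or its reverse complement CCGCCC, and each is written 5′ to 3′ on the strand of its gene. They lie at chr9:22452604-22452853 (plus strand), chr14:32571813-32572030 (plus strand) and chr5:137305048-137305231 (minus strand).
Vegfa: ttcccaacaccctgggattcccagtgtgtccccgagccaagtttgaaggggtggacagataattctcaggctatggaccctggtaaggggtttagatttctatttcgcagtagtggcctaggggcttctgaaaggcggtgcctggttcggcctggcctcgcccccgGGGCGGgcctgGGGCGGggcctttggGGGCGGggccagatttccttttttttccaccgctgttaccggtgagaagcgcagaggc
Kdr: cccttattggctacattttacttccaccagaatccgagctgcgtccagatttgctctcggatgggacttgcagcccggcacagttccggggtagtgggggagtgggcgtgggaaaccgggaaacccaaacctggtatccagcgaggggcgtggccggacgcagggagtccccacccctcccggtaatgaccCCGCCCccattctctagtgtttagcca
Tie1: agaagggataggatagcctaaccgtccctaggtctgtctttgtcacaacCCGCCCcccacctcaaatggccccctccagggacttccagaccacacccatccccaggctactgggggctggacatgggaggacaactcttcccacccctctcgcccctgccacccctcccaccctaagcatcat
The motifs were searched on both strands of the 250 bases before the RefSeq start, which lie wholly (Flt1) or partly (Vegfb, Tie1 and Kdr) inside the annotated gene. GGGCGG occurred in 7 of 7 promoters, beside 30.5% of all 33469 promoters. These 7 promoters were 60.4% to 76% GC, beside a median of 51.2% over all promoters. The background was not matched for GC, so its part in this count was not tested. ACGTG, the core of the hypoxia response element, occurred in 0 of 7 beside 16.6% of all, and the ETS forms CCGGAAG and CAGGAAG in 0 of 7 each beside 7.27% and 10.2%. TATAAA occurred in 1 of 7 (Flt1) beside 12.9%. The genes themselves lie on chromosomes 9 (Vegfa), 1 (Vegfb), 16 (Vegfc and Angpt2), 12 (Flt1), 14 (Kdr), 10 (Flt4), 7 (Angpt1) and 5 (Tek and Tie1), and all are annotated as protein coding.

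The libraries held 2297 to 5887 nuclei and differed widely in depth. The median was 161 UMIs per nucleus in the 10x mesPVAT library, 346 in Parse mesPVAT, 213 in RP fat, 3530 in cow WAT, 1246 in taPVAT and 1706 in BAT. Each deposited barcode is called a nucleus here. The paper saw no clear inflection in the knee plots of Parse mesPVAT and RP fat. It reads this as trouble in telling true nuclei from background RNA. It also places rat white fat below the depth of genes needed for robust cell annotation. None of the 15 pairs of libraries shared a nuclear barcode (0 in each). This cannot show whether RNA mixed between libraries, because Parse barcodes name the wells that a sample was loaded in. The 10x barcodes come from another kit. The labels were checked against Ucp1, the uncoupling protein of brown fat, which stood at 1782 CPM (UMIs of the gene per 1000000 UMIs of the library) in taPVAT and 2072 in BAT. It stood at 63.4 CPM in Parse mesPVAT and 89.9 in RP fat, beside 0.808 in 10x mesPVAT and 0.654 in cow WAT. In the white Parse libraries of the rat, Ucp1 was 48.3 CPM (mesPVAT) and 110 CPM (RP fat) in nuclei with the adipocyte marker Plin1 alone, and 93.2 and 97.1 CPM in nuclei without a class marker. The part of this signal in the values of the white Parse libraries was not tested. The summed level of 8 adipocyte markers was 6749 CPM in 10x mesPVAT, 3550 in Parse mesPVAT, 1266 in RP fat, 2022 in cow WAT (6 of the 8 in its annotation), 7914 in taPVAT and 8903 in BAT. The sum of 8 endothelial markers, none of them among the 10 genes, ran from 688 CPM in 10x mesPVAT to 2164 in cow WAT.

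Nuclei were sorted into classes by co-detection. A nucleus with at least 1 UMI of Plin1 (adipocytes), Pecam1 (endothelial cells), Pdgfra (adipose stem and progenitor cells, ASPC) or Notch3 (mural cells), and no UMI of the other 3, was placed in that class. Shallow libraries left most nuclei without any of the 4 markers: 84.8% in 10x mesPVAT, 66.9% in Parse mesPVAT, 83.5% in RP fat, 31.1% in cow WAT, 23.6% in taPVAT and 15.3% in BAT. Plin1-only nuclei numbered 650, 588, 247, 147, 1246 and 1488 in the same order, and Pecam1-only nuclei 140, 178, 65, 414, 240 and 293. Nuclei with several markers held 23.7% of the nuclei and 54.8% of the UMIs of cow WAT.

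Vegfa, the ligand of Kdr and Flt1, had its highest levels in the brown depots. Its level was 1499 CPM in taPVAT (95% exact Poisson interval, 1466 to 1533) and 1373 (1344 to 1402) in BAT, from 7646 and 8672 UMIs. In the white rat depots it was 461 (428 to 494) in Parse mesPVAT, 222 (192 to 257) in RP fat and 743 (695 to 792) in 10x mesPVAT. Cow WAT had 117 CPM (112 to 122). The order was taPVAT, BAT, 10x mesPVAT, Parse mesPVAT, RP fat and cow WAT, and all neighbours in it differed beyond counting error, which is all that these intervals and the other intervals given here cover. In sums over nuclei, fewer cells of a type and less RNA per cell cannot be told apart.

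A UMI of Vegfa was found in 56.6% of taPVAT nuclei and 63.3% of BAT nuclei, against 12.6% in 10x mesPVAT, 16.9% in Parse mesPVAT, 5.99% in RP fat and 24.1% in cow WAT. These shares rise with depth, so nuclei were also thinned to 200 UMIs each and shallower nuclei were left out. The thinned Vegfa shares were 19.9% in taPVAT and 20.2% in BAT, 14.7% in 10x mesPVAT, 8.42% in Parse mesPVAT, 4.79% in RP fat and 1.22% in cow WAT. Thinning kept the nuclei of the 3 deeper libraries and 2099, 2552 and 1503 nuclei of 10x mesPVAT, Parse mesPVAT and RP fat. Cow WAT, the deepest library, moved from the third highest Vegfa share to the lowest, and the brown depots stayed highest.

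**Figure D1:**
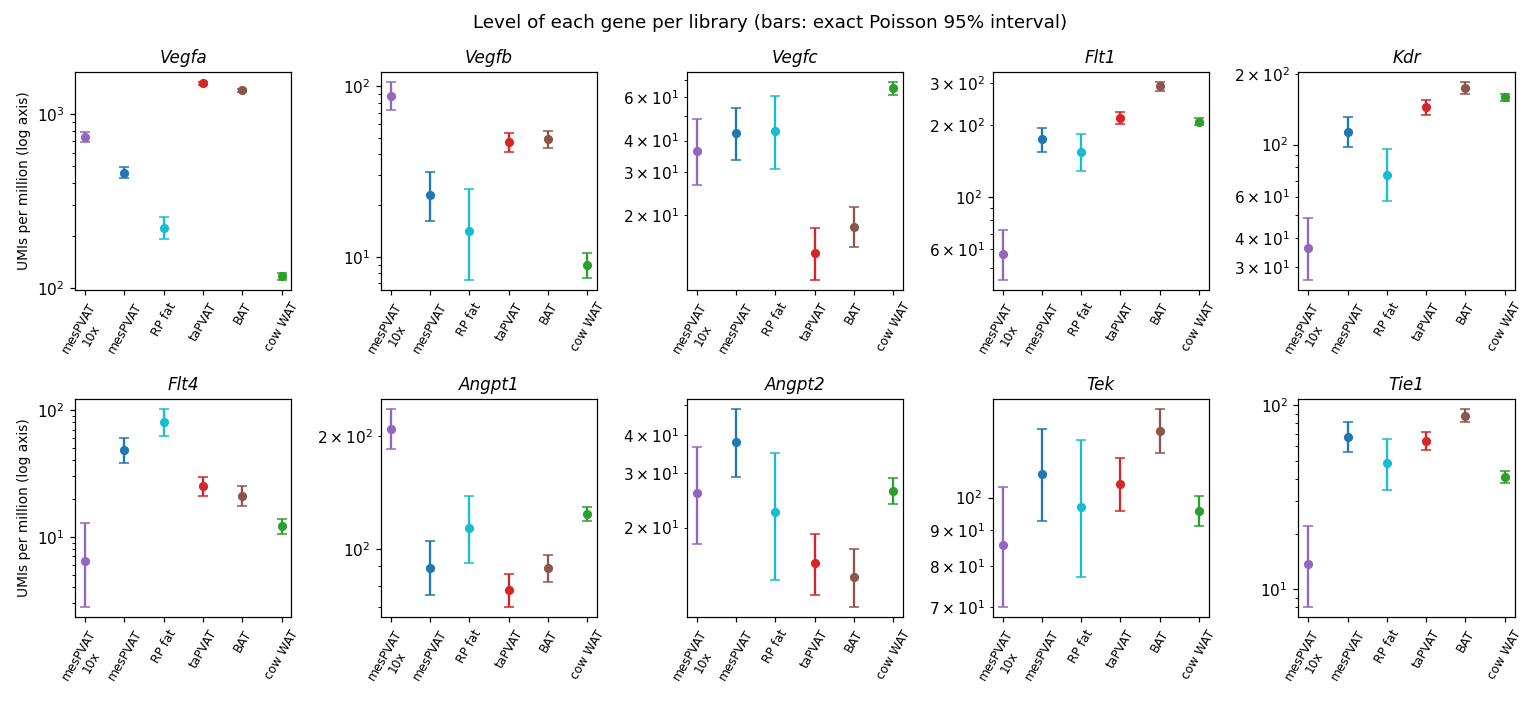
CPM of each of the 10 genes in each of the 6 libraries, as points on a log axis with 95% exact Poisson intervals, each gene with an axis range of its own. Vegfa stands at 1499 in taPVAT and 1373 in BAT and at 117 in cow WAT, while Tek stays between 85.7 and 124 in all 6 libraries.

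Within libraries Vegfa was highest in Plin1-only nuclei among the 4 classes, in all 6 libraries. In BAT it was 1807 CPM in Plin1-only and 111 in Pecam1-only nuclei, 16.3-fold higher (12.1 to 22.3). In taPVAT the pair was 1988 and 179 (11.1-fold, 8.28 to 15.2), and in cow WAT 297 and 17.3 (17.1-fold, 12.0 to 25.2). In Parse mesPVAT it was 1068 against 131 (8.17-fold, 4.90 to 14.7) and in 10x mesPVAT 1221 against 89.5 (13.6-fold, 5.26 to 50.5). RP fat had 440 against 298 CPM, from 40 and 11 UMIs, and the interval of its ratio (1.47, 0.742 to 3.18) held equality. Pdgfra-only nuclei came next in taPVAT, with 887 CPM (709 to 1095) from 86 UMIs in 75 nuclei. By positive nuclei, 67.1% of the Vegfa-positive nuclei of taPVAT and 75.2% of those of BAT were Plin1-only, beside 46.0% and 55.1% of all nuclei there.

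The Vegfa signal of adipocyte nuclei was also compared with that of immune nuclei. With classes taken from whole marker lists, adipocyte nuclei had 1702 CPM of Vegfa in BAT and immune nuclei 92.1 (18.5-fold), and the pair was 1907 and 193 in taPVAT (9.87-fold). In cow WAT it was 301 and 45.4 (6.64-fold), in Parse mesPVAT 1039 and 198 (5.26-fold) and in RP fat 482 and 119 (4.06-fold, 1.43 to 15.9). The 10x mesPVAT library had 1232 CPM in adipocyte nuclei and no Vegfa UMI in 111 immune nuclei, where 3 UMIs, the limit taken for a count of 0, would be 90.9 CPM. The adipocyte level was therefore above the immune level in each of the 6 libraries.

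Vegfb, a ligand of Flt1 linked to fatty acid handling, followed Plin1 as well but at few UMIs. Its level was 88.1 CPM (72.3 to 106) in 10x mesPVAT, 48.9 (43.6 to 54.7) in BAT and 47.1 (41.3 to 53.4) in taPVAT. It was 22.9 (16.2 to 31.5) in Parse mesPVAT, 14.2 (7.34 to 24.8) in RP fat and 8.91 (7.54 to 10.5) in cow WAT. The 10x library stood above both brown depots, which did not differ from each other, and among the last 3 libraries, which lay below taPVAT, no neighbours differed beyond counting error. The interval of Parse mesPVAT did lie above that of cow WAT. Plin1-only nuclei had 203 CPM of Vegfb in 10x mesPVAT, 58.0 in Parse mesPVAT, 15.5 in cow WAT, 61.7 in taPVAT and 62.7 in BAT, the highest of the 4 classes in these 5 libraries. Pecam1-only nuclei had 7.41 CPM in BAT and 15.9 in taPVAT, from 3 and 4 UMIs. RP fat had 12 Vegfb UMIs in all and was too shallow to compare its classes. A UMI was found in 1.73% of nuclei in 10x mesPVAT, 1.22% in Parse mesPVAT, 0.428% in RP fat, 5.49% in cow WAT, 7.72% in taPVAT and 9.56% in BAT, and thinned to 200 UMIs 10x mesPVAT was highest (2.00%) and cow WAT lowest (0.218%).

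Vegfc, the lymphatic growth factor, ran the other way across depots. Its level was 65.0 CPM (61.2 to 68.9) in cow WAT, 43.8 (30.8 to 60.3) in RP fat, 42.9 (33.5 to 54.1) in Parse mesPVAT and 36.4 (26.5 to 48.7) in 10x mesPVAT. It was 18.0 (14.9 to 21.7) in BAT and 14.1 (11 to 17.8) in taPVAT. The white rat libraries did not differ from one another beyond counting error, nor did the brown pair. In cow WAT Vegfc was highest in Pecam1-only nuclei at 132 CPM (260 UMIs), with 65.8 in Pdgfra-only and 10.0 in Plin1-only nuclei. BAT had 51.9 CPM in Pecam1-only nuclei (21 UMIs) and 7.31 in Plin1-only nuclei, and taPVAT had 72.2 in Pdgfra-only (7 UMIs), 39.8 in Pecam1-only and 4.54 in Plin1-only nuclei. Vegfc was thus low in Plin1-only nuclei of the 3 deep libraries.

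The endothelial nuclei of these libraries were split further by vessel markers, a split chosen after the values of the class were seen. Each took the vessel list with the most UMIs, without a tie, and 1 UMI was enough. Of the 5 capillary markers, 3 were in the Parse rat annotation and 4 in that of the cow. In cow WAT Vegfc stood at 382 CPM in nuclei with mostly venous markers (234 UMIs, 103 nuclei), 173 in arterial nuclei (62 UMIs, 43 nuclei) and 86.5 in capillary nuclei (239 UMIs, 413 nuclei). In BAT the Vegfc levels were 108 CPM in venous (12 UMIs), 108 in arterial (8 UMIs) and 2.60 in capillary nuclei (1 UMI). In taPVAT Vegfc was 122 CPM in arterial (8 UMIs), 33.6 in venous (4 UMIs) and 31.4 in capillary nuclei (6 UMIs), so the venous and capillary values were not apart there, and in Parse mesPVAT arterial nuclei had 164 (4 UMIs), venous nuclei 26.8 (2 UMIs) and capillary nuclei 96.3 (3 UMIs). Among these 3 vessel groups Kdr was highest in capillary nuclei of the 3 deeper libraries, with 1059 CPM in BAT against 515 in arterial and 568 in venous nuclei, and 586 in cow WAT against 404 and 243. In taPVAT Kdr was 925 CPM in capillary, 762 in arterial and 555 in venous nuclei.

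**Figure D2:**
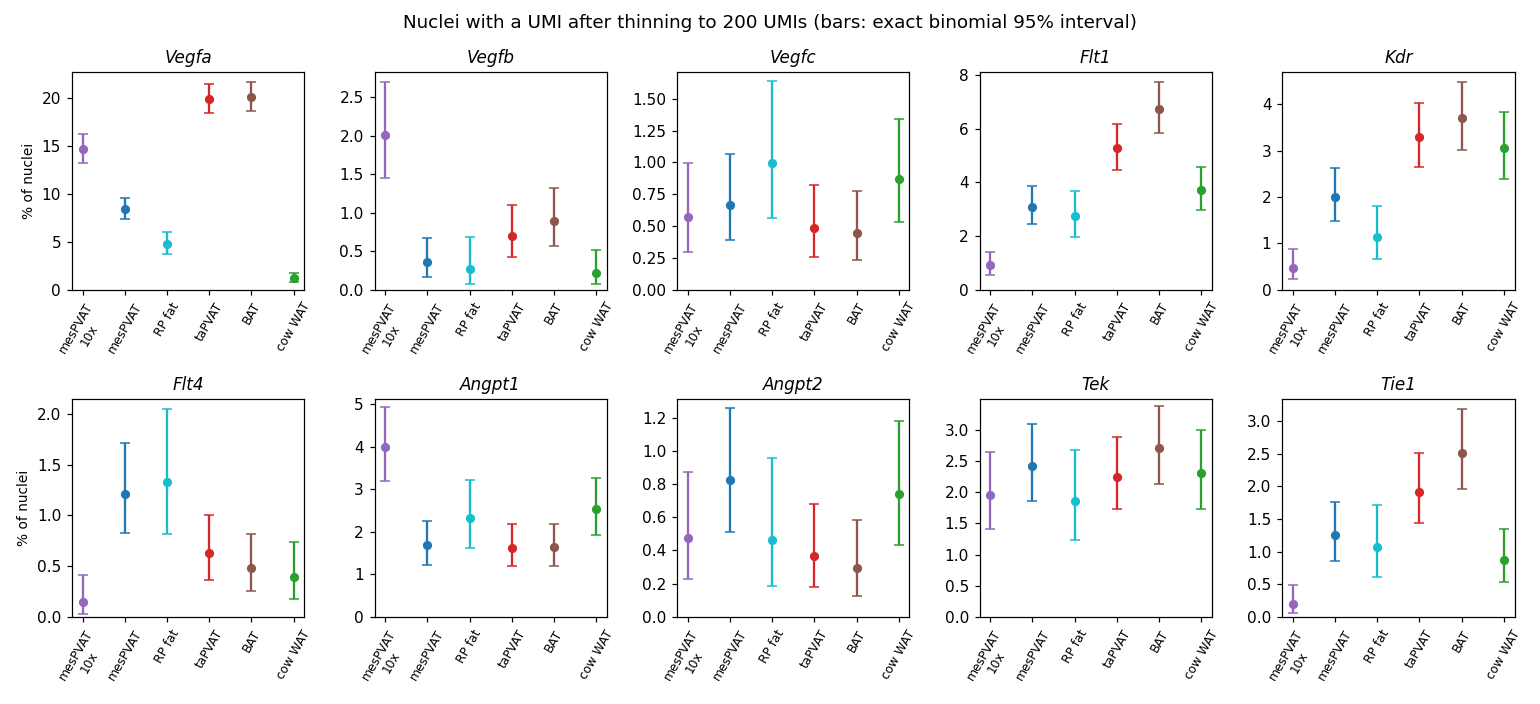
Share of nuclei (%) with at least 1 UMI of each gene in each library after thinning each nucleus to 200 UMIs, as points with 95% exact binomial intervals. For Vegfa the share is 1.22% in cow WAT and 19.9% in taPVAT, and for Tek all 6 libraries lie between 1.86% and 2.70%.

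Flt1 and Kdr, the receptors of Vegfa, were highest in BAT. Flt1 stood at 290 CPM (277 to 304) in BAT, followed by taPVAT with 214 (201 to 227) and cow WAT with 206 (199 to 213). It was 174 (154 to 195) in Parse mesPVAT, 154 (128 to 183) in RP fat and 57.4 (44.8 to 72.4) in 10x mesPVAT. BAT stood above all others, the 10x library below all others, and taPVAT and cow WAT, like Parse mesPVAT and RP fat, did not differ beyond counting error. Kdr was 175 CPM (165 to 186) in BAT, 159 (153 to 165) in cow WAT, 145 (134 to 156) in taPVAT, 113 (97.8 to 131) in Parse mesPVAT, 74.5 (57.3 to 95.4) in RP fat and 36.4 (26.5 to 48.7) in 10x mesPVAT. All neighbours in the order of Kdr differed beyond counting error. Kdr made up 32.6% to 43.5% of the summed UMIs of Kdr and Flt1 in the 6 libraries.

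Both receptors lay with Pecam1, the adhesion molecule of endothelial cells. Flt1 in Pecam1-only nuclei was 1536 CPM in BAT, 793 in taPVAT, 669 in cow WAT, 434 in RP fat, 380 in 10x mesPVAT and 323 in Parse mesPVAT. In Plin1-only nuclei it was 58.8, 63.9, 23.7, 121, 20.8 and 79.7 CPM in the same order. The ratio of both classes for Flt1 was 26.1 (22.3 to 30.7) in BAT, 12.4 (10.0 to 15.3) for taPVAT and 28.2 (19.1 to 43.3) for cow WAT. It was 4.05 (2.46 to 6.67) in Parse mesPVAT and 3.59 (1.56 to 8.55) in RP fat. The Flt1 levels of 10x mesPVAT, 380 and 20.8 CPM, were further apart than in these white Parse libraries, but rested on 17 and 4 UMIs. Kdr was 963 CPM in Pecam1-only and 34.6 in Plin1-only nuclei of BAT (27.8-fold), 657 and 47.7 in taPVAT (13.8-fold) and 502 and 18.3 in cow WAT (27.5-fold). In Parse mesPVAT it was 349 and 43.5 (8.02-fold, 4.49 to 14.9). In RP fat Kdr had 108 and 65.9 CPM from 4 and 6 UMIs, and the interval of the ratio (0.341 to 6.94) held equality. In 10x mesPVAT Kdr had 179 and 10.4 CPM, from 8 and 2 UMIs.

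Kdr was also read by the markers found in its positive nuclei. A Pecam1 UMI was found in 62.4% of Kdr-positive BAT nuclei and in 13.2% of Kdr-negative ones, in 51.9% and 14.5% in taPVAT and in 73.3% and 21.1% in cow WAT. The shares were 24.7% and 7.32% in Parse mesPVAT, 11.9% and 2.84% in RP fat and 14% and 2.41% in 10x mesPVAT. Kdr-positive nuclei were also the deeper ones, with a median of 6051 against 3027 UMIs in cow WAT, 1817 against 1686.5 in BAT and 486 against 211 in RP fat. In every library Kdr-positive nuclei held Pecam1 more often than Kdr-negative nuclei did. In the shallow libraries this was not particular to Pecam1. Pdgfra was found in 10.2% of Kdr-positive and 2.77% of Kdr-negative nuclei of RP fat (6 positive nuclei). Notch3 was found in 4.65% and 0.736% in 10x mesPVAT (2 positive nuclei).

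**Figure D3:**
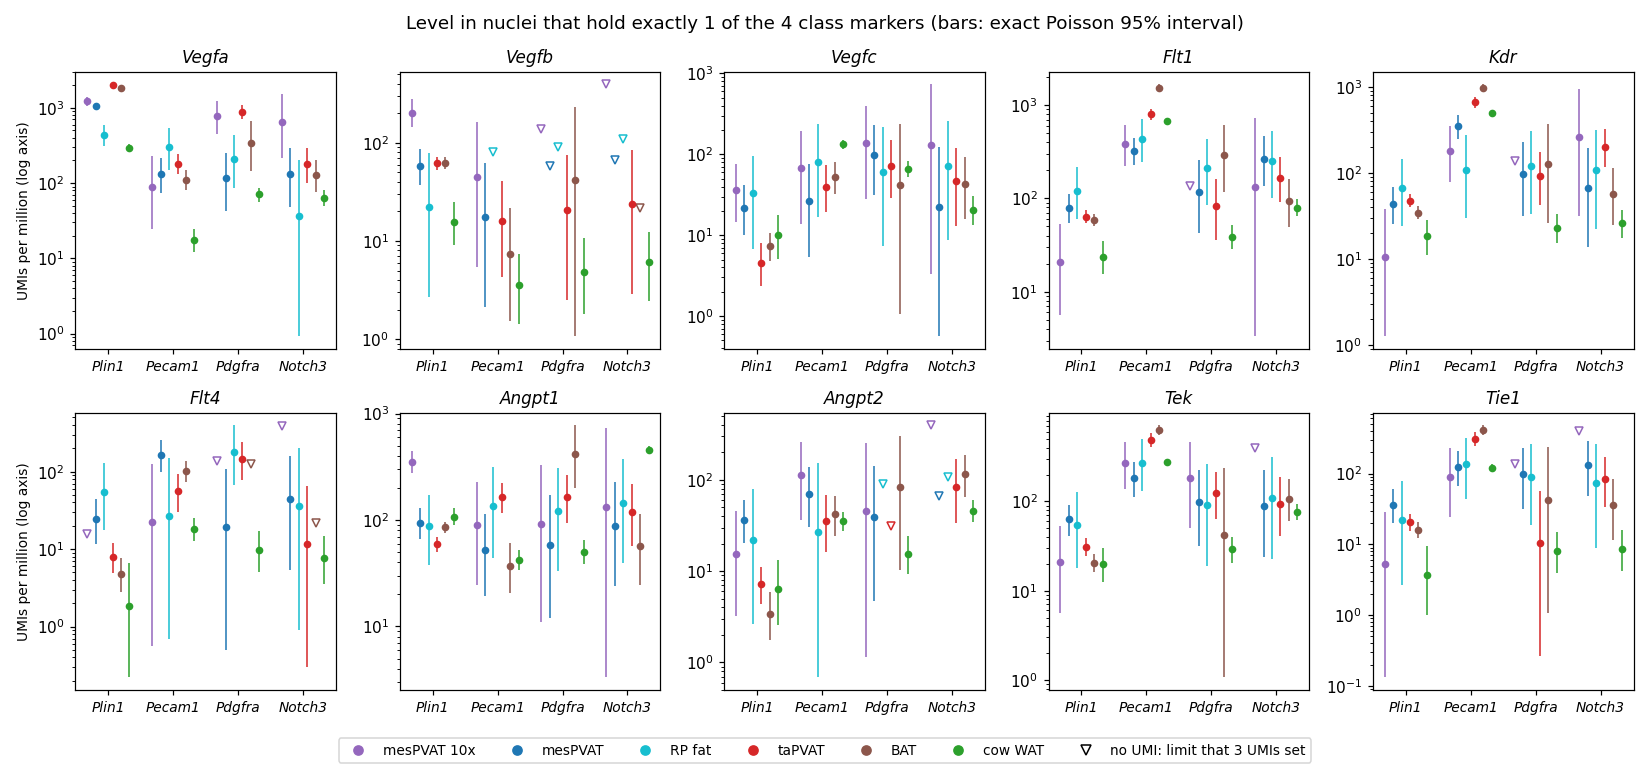
CPM of each gene (log axis) in Plin1-only, Pecam1-only, Pdgfra-only and Notch3-only nuclei of each library, as points with 95% exact Poisson intervals, with open triangles at the level of 3 UMIs where a class had none. In BAT Vegfa is 1807 in Plin1-only nuclei against 111 in Pecam1-only nuclei, and Flt1 is 58.8 against 1536.

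Flt4, the receptor of Vegfc, was highest in the white rat Parse libraries. Its level was 80.4 CPM (62.5 to 102) in RP fat, 48.3 (38.3 to 60.1) in Parse mesPVAT, 25.1 (20.9 to 29.8) in taPVAT, 21.1 (17.6 to 24.9) in BAT, 12.1 (10.5 to 13.9) in cow WAT and 6.46 (2.79 to 12.7) in 10x mesPVAT. RP fat stood above Parse mesPVAT and that above the brown depots, which did not differ from each other. The summed level of 6 lymphatic markers (5 in the rat annotations) was 358 CPM in RP fat, 219 in Parse mesPVAT, 68.6 in taPVAT, 29.9 in BAT, 106 in cow WAT and 368 in 10x mesPVAT. Its order was not that of Flt4, which was lowest in 10x mesPVAT (8 UMIs) and lower in cow WAT than in the brown depots. In BAT Flt4 was 101 CPM in Pecam1-only (41 UMIs) and 4.78 in Plin1-only nuclei, and in Parse mesPVAT 166 (19 UMIs) and 24.2. In RP fat, where Flt4 was highest, 54 of the 68 UMIs lay in nuclei without a class marker. Pecam1-only nuclei there had 27.1 CPM of Flt4 (1 UMI), Plin1-only 54.9 (5 UMIs) and Pdgfra-only 181 (6 UMIs), and a Pecam1 UMI was found in 3.23% of Flt4-positive and 3.03% of Flt4-negative nuclei. The highest value of Flt4 in taPVAT, 144 CPM in Pdgfra-only nuclei, rested on 1 nucleus with 12 of the 14 UMIs and was 21.9 without it.

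Angpt1, the agonist of Tek, was highest in 10x mesPVAT at 209 CPM (185 to 236). It was 124 (119 to 130) in cow WAT, 114 (92.0 to 139) in RP fat, 89.3 (75.5 to 105) in Parse mesPVAT, 89.0 (81.7 to 96.6) in BAT and 77.6 (70.2 to 85.7) in taPVAT. From cow WAT down to BAT no neighbours differed beyond counting error, and taPVAT lay just below BAT. The interval of cow WAT did lie above those of Parse mesPVAT and BAT. The nuclei that held it differed between libraries. In cow WAT Notch3-only nuclei had the highest Angpt1 level, 457 CPM from 529 UMIs, against 108 in Plin1-only, 50.4 in Pdgfra-only and 42.3 in Pecam1-only nuclei. Without the nucleus with the most Angpt1 UMIs it was still 427. By marker lists the mural nuclei of cow WAT had 557 CPM (622 UMIs) and 53.3% of them held a UMI.

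In the brown rat depots most Angpt1 UMIs lay in adipocyte nuclei by marker lists, 414 of 562 in BAT and 225 of 396 in taPVAT, but at low levels of 85.0 and 60.7 CPM. These were not above the whole-library levels of 89.0 and 77.6 CPM, so the counts show no enrichment of Angpt1 in adipocyte nuclei. Notch3-only nuclei had 57.4 CPM of Angpt1 in BAT (8 UMIs) and 118 in taPVAT (10 UMIs). In BAT the highest Angpt1 level was 421 CPM in Pdgfra-only nuclei, from 10 UMIs, and 445 in ASPC nuclei by marker lists, from 59 UMIs. In taPVAT it was highest by marker lists in immune nuclei, at 354 CPM from 66 UMIs in 203 nuclei, and still 314 without the top nucleus. Immune nuclei of BAT also had 276 CPM of Angpt1 (18 UMIs), above its adipocyte nuclei. In Parse mesPVAT and RP fat immune nuclei had 138 and 149 CPM, and the ratio to adipocyte nuclei held equality. The immune level was below the adipocyte level in cow WAT (89.2 against 129) and 10x mesPVAT (30.3 against 353). Endothelial nuclei by marker lists had 44.6 CPM in taPVAT and 47.3 in BAT, whereas Pecam1-only nuclei had 163 in taPVAT and 37.0 in BAT. The Pecam1-only nuclei of taPVAT also held 498 CPM of the leukocyte marker Ptprc, against 114 in BAT. In 10x mesPVAT Plin1-only nuclei had 353 CPM of Angpt1 (68 UMIs), and Pecam1-only nuclei 89.5 (4 UMIs).

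Angpt2, the context-dependent antagonist, was low in all libraries. Its level was 38.0 CPM (29.2 to 48.7) in Parse mesPVAT, 26.3 (23.9 to 28.9) in cow WAT, 25.9 (17.7 to 36.5) in 10x mesPVAT, and 22.5 (13.5 to 35.1) in RP fat. It was lowest in the brown depots, with 15.3 (12.1 to 19.1) for taPVAT and 13.8 (11 to 17) for BAT. Parse mesPVAT stood above cow WAT, and no later neighbours differed, though the interval of cow WAT lay above those of both brown depots. Of the summed UMIs of Angpt1 and Angpt2, Angpt2 took 29.9% (exact binomial interval, 23.8 to 36.5) in Parse mesPVAT and 11% to 17.5% in the other 5 libraries. It was highest in Notch3-only nuclei of the deep libraries, with 115 CPM in BAT (16 UMIs), 82.7 in taPVAT (7 UMIs) and 45.8 in cow WAT (53 UMIs), against 3.38, 7.19 and 6.39 in Plin1-only nuclei. In Pecam1-only nuclei it was 42.0 in BAT (17 UMIs) and 35.8 in taPVAT (9 UMIs). By the vessel split of cow WAT, Angpt2 was 53.9 CPM in venous, 42.4 in capillary and 30.7 in arterial nuclei, so Notch3-only nuclei did not stand apart there. In Parse mesPVAT, where Angpt2 was highest, Notch3-only nuclei held no Angpt2 UMI. Pecam1-only nuclei there had 69.7 CPM (8 UMIs) and Plin1-only nuclei 36.2 (15 UMIs). By detection, Pecam1 was in 49.2%, 41.5% and 56.5% of Angpt2-positive nuclei of BAT, taPVAT and cow WAT. Notch3 was in 33.8%, 35.4% and 43.1% of them. Among Angpt2-negative nuclei the shares were 21.7%, 19.4% and 31.7% for Pecam1 and 7.52%, 7.53% and 24.0% for Notch3.

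Tek, the receptor of both angiopoietins, had the flattest levels of the 10 genes. It was 124 CPM (116 to 133) in BAT, 108 (92.8 to 125) in Parse mesPVAT, 105 (95.8 to 114) in taPVAT, 97.0 (77.2 to 120) in RP fat, 95.8 (91.2 to 101) in cow WAT and 85.7 (70.1 to 104) in 10x mesPVAT. No neighbours in this order differed beyond counting error, but libraries further apart did. BAT stood above taPVAT (taPVAT over BAT 0.841, 0.752 to 0.940) and RP fat (BAT over RP fat 1.28, 1.02 to 1.63). Its interval also lay above those of cow WAT and 10x mesPVAT. Within libraries Tek was far from flat, with 630 CPM in Pecam1-only and 20.5 in Plin1-only nuclei of BAT (30.7-fold, 23.6 to 40.3) and 494 and 31.0 in taPVAT (15.9-fold). Cow WAT had 279 and 20.1 (13.9-fold), Parse mesPVAT 183 and 62.8 (2.91-fold), RP fat 271 and 54.9 (4.94-fold) and 10x mesPVAT 268 and 20.8 (12.9-fold). In 10x mesPVAT the ASPC nuclei by marker lists also held 183 CPM of Tek (26 UMIs), close to the 220 of endothelial nuclei (11 UMIs).

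Tie1, the partner of Tek, was highest in BAT at 88.0 CPM (80.8 to 95.6). It was 67.6 (55.7 to 81.3) in Parse mesPVAT, 64.3 (57.5 to 71.7) in taPVAT, 48.5 (34.8 to 65.8) in RP fat, 40.9 (37.9 to 44.1) in cow WAT and 13.7 (8 to 22) in 10x mesPVAT. Between the ends of this order no neighbours differed beyond counting error, though the intervals of Parse mesPVAT and taPVAT lay above that of cow WAT. Tie1 stood at 410 CPM in Pecam1-only and 16.0 in Plin1-only nuclei of BAT (25.6-fold), 311 and 20.4 in taPVAT (15.2-fold) and 120 and 3.65 in cow WAT (32.9-fold). Among the 4 classes Tie1 was highest in Pecam1-only nuclei of RP fat but in Notch3-only nuclei of Parse mesPVAT. In Parse mesPVAT Notch3 was found in 18.6% of Tie1-positive and 3.45% of Tie1-negative nuclei, and Pecam1 in 28.4% and 7.52%. Of the UMIs of Tie1 and Tek together, Tie1 took 13.8% (8.26 to 21.2) in 10x mesPVAT, against 29.9% to 41.5% in the 5 Parse libraries.

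**Figure D4:**
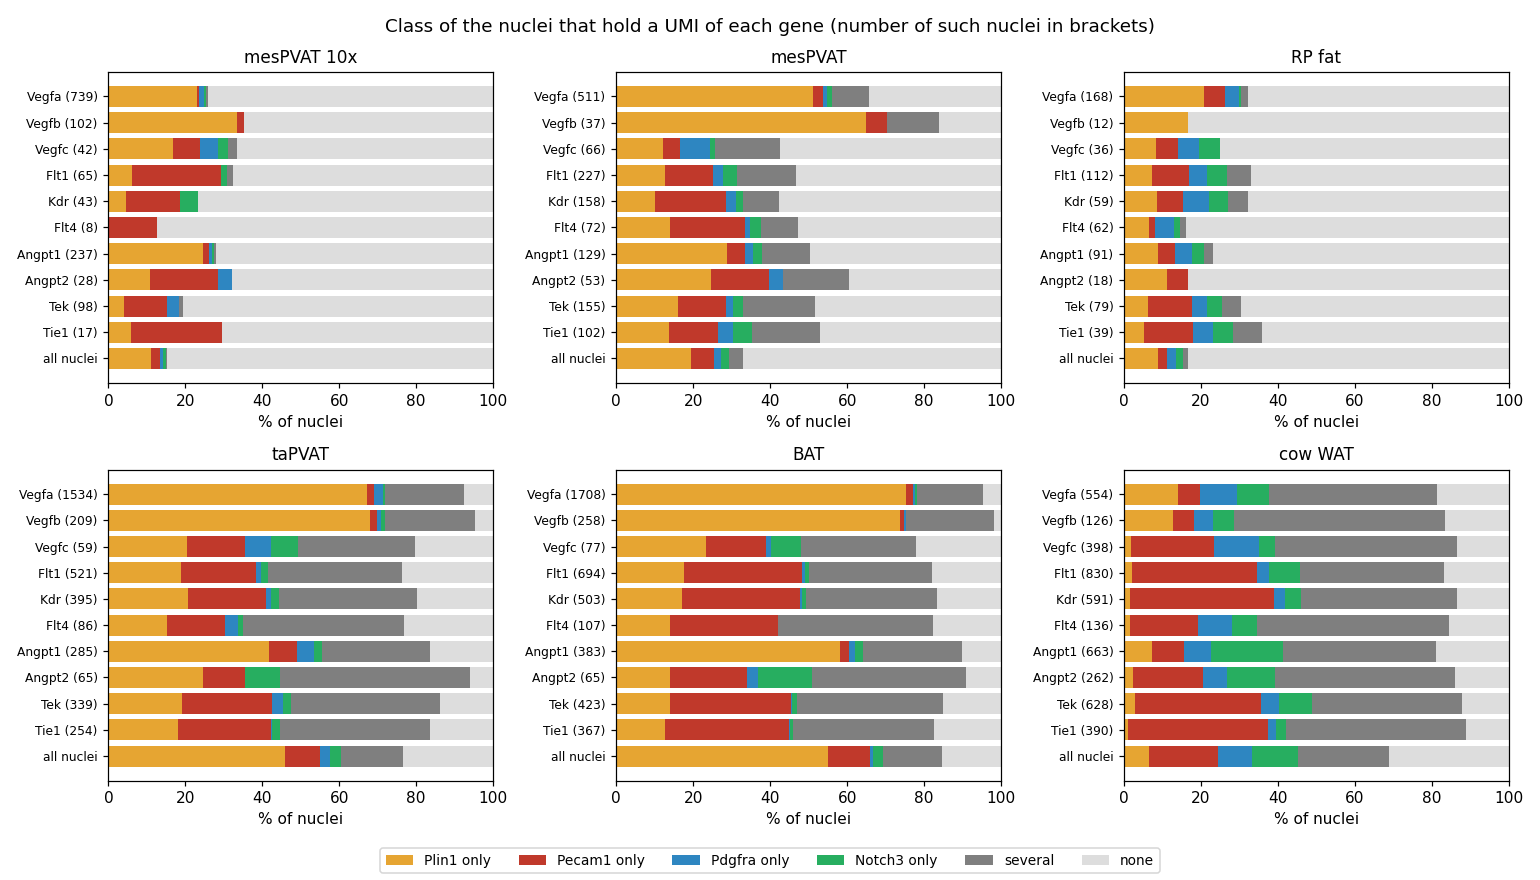
Classes of the nuclei positive for each gene, as the share (%) of positive nuclei that were Plin1-only, Pecam1-only, Pdgfra-only, Notch3-only, of several markers or of none, by library, with all nuclei in the last bar. Of Vegfa-positive nuclei 75.2% are Plin1-only in BAT, and of Kdr-positive nuclei 30.6% are Pecam1-only there.

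The shares of nuclei with a UMI of the endothelial receptors followed depth before thinning. For Flt1 they were 1.10% in 10x mesPVAT, 7.50% in Parse mesPVAT, 3.99% in RP fat, 36.1% in cow WAT, 19.2% in taPVAT and 25.7% in BAT. Thinned to 200 UMIs, the Flt1 shares were 0.905%, 3.10%, 2.73%, 3.70%, 5.28% and 6.74%, with BAT highest and 10x mesPVAT still lowest. The thinned Kdr shares were 0.476%, 2.00%, 1.13%, 3.05%, 3.29% and 3.71%, against 0.730% to 25.7% unthinned. For Tek the thinned shares lay between 1.86% and 2.70%, from 1.66% to 27.3% unthinned, and for Tie1 between 0.191% and 2.52%, from 0.289% to 17%. Cow WAT, with the highest unthinned share of each of these 4 receptors, had the highest thinned share of none of them.

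The 4 receptors Flt1, Kdr, Tek and Tie1 were then summed in endothelial and immune nuclei by marker lists. Their summed level was 3270 CPM in endothelial and 123 in immune nuclei of BAT (26.6-fold, 13.5 to 61.8), 2585 and 263 in taPVAT (9.82-fold, 7.39 to 13.3) and 1534 and 119 in cow WAT (12.9-fold, 11.3 to 14.8). In BAT 90.0% of endothelial and 9.38% of immune nuclei held a UMI, at median depths of 1050.5 and 904 UMIs. In 10x mesPVAT the levels were 822 and 90.9 CPM (9.04-fold, 2.88 to 45.6). The distance was smaller in the white Parse libraries, with 922 and 395 CPM in mesPVAT (2.33-fold, 1.48 to 3.88) and 925 and 475 in RP fat (1.95-fold, 1.12 to 3.58). In RP fat 29.5% of endothelial and 24.1% of immune nuclei held a UMI, at median depths of 453.5 and 363. The immune level of the 4 receptors was thus a larger part of the endothelial level in the white Parse libraries than in BAT, taPVAT or cow WAT. Whether the immune level came from the immune cells themselves or from background was not tested.

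**Figure D5:**
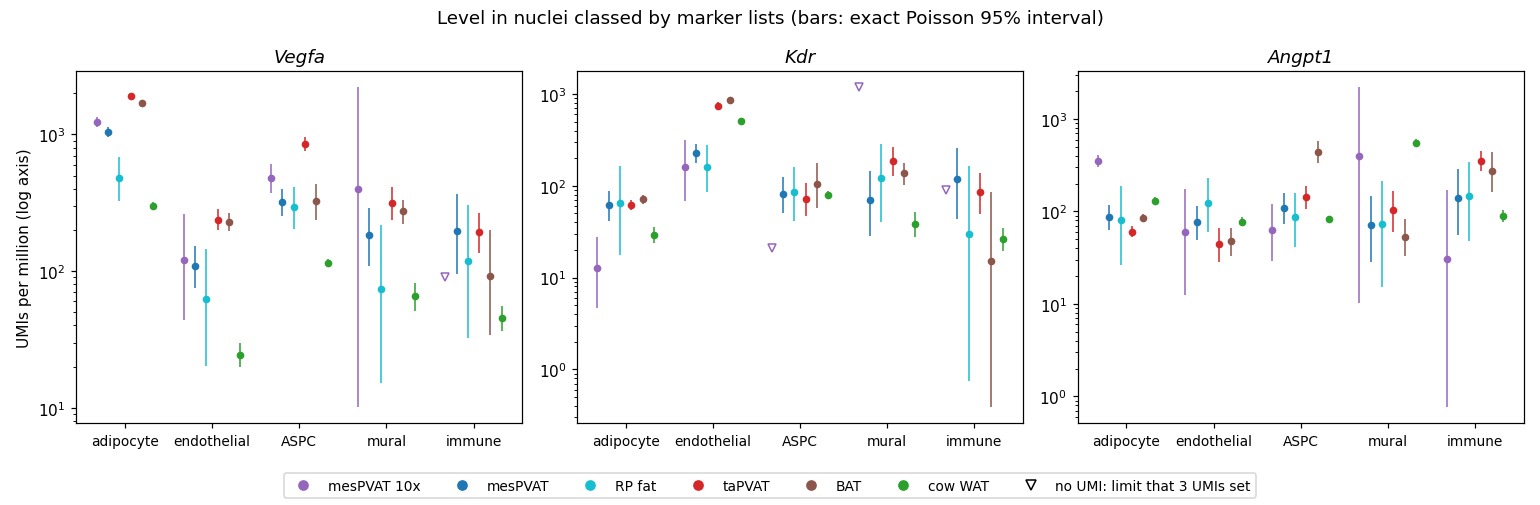
CPM of Vegfa, Kdr and Angpt1 (log axis) in nuclei classed by whole marker lists (adipocyte, endothelial, ASPC, mural, immune), by library, as points with 95% exact Poisson intervals, with open triangles at the level of 3 UMIs where a class had none. Angpt1 reaches 557 in mural nuclei of cow WAT and 354 in immune nuclei of taPVAT.

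Genes were then counted by the class in which they were highest, among genes with at least 10 UMIs in the 4 classes together. In BAT 6 of 10 (Vegfc, Flt1, Kdr, Flt4, Tek and Tie1) were highest in Pecam1-only nuclei, beside 24.6% of all genes, and the same 6 names were found in cow WAT, beside 21.5%. In taPVAT there were 4 of 10 (Flt1, Kdr, Tek and Tie1), beside 26.7%. Parse mesPVAT had 5 of 10 (Flt1, Kdr, Flt4, Angpt2 and Tek), beside 24%, and RP fat 4 of 8 (Vegfc, Flt1, Tek and Tie1), beside 26%. In 10x mesPVAT 2 of 7 (Flt1 and Tek) were highest there, close to the 25.3% of all genes. Flt1 and Tek were in this count in all 6 libraries.

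The 2 brown depots, a perivascular one and BAT, were compared first. None of the 10 genes differed by 2-fold between taPVAT and BAT, where 8.52% of 23157 genes were at least 2-fold higher in taPVAT, 2.48% lower and 11% either. Vegfa was 1.09-fold higher in taPVAT (1.06 to 1.13), and the endothelial receptors were lower, with ratios of 0.736 (0.682 to 0.794) for Flt1, 0.827 (0.753 to 0.909) for Kdr, 0.841 (0.752 to 0.940) for Tek and 0.731 (0.636 to 0.839) for Tie1. Angpt1 had a ratio of 0.873 (0.766 to 0.994). For Vegfb (0.962), Vegfc (0.782), Flt4 (1.19) and Angpt2 (1.11) the interval held equality. The median ratio over the 10 genes was 0.857, beside 1.09 over all genes.

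The receptor difference was also present among Pecam1-only nuclei. Flt1 had a ratio of 0.516 (0.438 to 0.606) there and Kdr 0.682 (0.565 to 0.821). The Ptprc level of these nuclei, given above, was higher in taPVAT, and its part in the ratio was not tested. In endothelial nuclei by marker lists Flt1 was 1045 CPM in taPVAT and 1412 in BAT, and Kdr 735 and 855. Vegfa in Plin1-only nuclei had a ratio of 1.10 (1.06 to 1.14).

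Brown and white rat depots were set against each other within the Parse batch. Per the study's methods, taPVAT homogenates were centrifuged at a lower speed than those of rat white fat, and no speed is given for BAT. Isolation and depot therefore cannot be told apart between taPVAT and the white depots. The lower value of one pair was set against the higher value of the other. By this closest pair Vegfa was 2.98-fold (BAT over Parse mesPVAT, 2.77 to 3.21) and Vegfb 2.05-fold (taPVAT over Parse mesPVAT, 1.45 to 2.97) higher in the brown depots. Scaling by the median of ratios took Vegfb to 1.94, short of 2-fold. Vegfc was lower, with 0.421 (0.310 to 0.575) for BAT over Parse mesPVAT. The other 7 genes did not pass 2-fold in either direction, Flt4 with 0.520 and Angpt2 with 0.680, and Flt1 and Kdr with 1.23 and 1.28. Of 28177 genes 4.87% were higher by this rule, 50.6% lower and 55.4% either, with a median ratio of 0.492 over all genes. That split followed UMI number: among genes with at least 50 UMIs 7.19% were higher and 37.3% lower, and among genes with at least 200 UMIs 12% were higher and 17% lower. Vegfa, Vegfb and Vegfc each had at least 200 UMIs in these libraries together, so the last shares are the nearest of these to read them against. Vegfc, with 37 (RP fat) to 114 (BAT) UMIs per library, lay closest to that cut. The share lower was larger where genes with fewer UMIs were counted, so 17% may be too small a background for Vegfc.

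For Vegfa each single pair can be given. The ratio was 3.26 (3.02 to 3.51) for taPVAT over Parse mesPVAT, 2.98 (2.77 to 3.21) for BAT over Parse mesPVAT, 6.74 for taPVAT over RP fat and 6.17 for BAT over RP fat. Among Plin1-only nuclei these Vegfa ratios were smaller, 1.86 (1.69 to 2.06), 1.69 (1.54 to 1.87), 4.52 (3.32 to 6.34) and 4.11 (3.02 to 5.76), and all stayed above 1. Plin1-only nuclei were 46.0% and 55.1% of nuclei in the brown depots and 19.4% and 8.81% in Parse mesPVAT and RP fat. These shares also follow depth, because the shallower white libraries had more nuclei without a class marker. They therefore do not measure adipocyte content. For Vegfb the Plin1-only levels of taPVAT, BAT and Parse mesPVAT differed by no more than counting error (taPVAT over Parse mesPVAT 1.06, 0.69 to 1.71). Flt1 in Pecam1-only nuclei was 4.76-fold (3.42 to 6.83) higher in BAT than in Parse mesPVAT and 2.46-fold (1.72 to 3.59) higher in taPVAT. Depth and, for taPVAT, centrifugation speed also differed between these libraries, and their part in these class levels was not tested.

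The white perivascular depot was compared with RP fat, the white depot away from vessels. Vegfa was 2.07-fold higher (1.76 to 2.44) in Parse mesPVAT and was the only 1 of the 10 genes past 2-fold, though not with median-of-ratios scaling (1.96), and the count was 0 with sublibrary 1 alone. Of all 24058 genes 6.46% were higher, 13.1% lower and 19.6% either. Kdr was 1.52-fold higher (1.14 to 2.06) and Flt4 lower, with a ratio of 0.600 (0.429 to 0.842). For the other 7 genes the interval held equality, with ratios from 0.787 (Angpt1) to 1.69 (Angpt2). The median over the 10 genes was 1.26, beside 0.816 over all genes. In Plin1-only nuclei the Vegfa ratio was 2.43 (1.76 to 3.45), and Plin1-only nuclei were 19.4% of nuclei in mesPVAT and 8.81% in RP fat. RP fat was the shallower library with more nuclei lacking a class marker, so these shares do not measure adipocyte content.

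The 10x and Parse libraries of mesPVAT differ in kit, batch, depth and gene annotation. Per the study's methods, the 10x nuclei were also isolated by an earlier protocol and sorted before loading. The parts of these differences cannot be told apart. Vegfb was 3.84-fold (2.63 to 5.71) and Angpt1 2.34-fold (1.91 to 2.89) higher in the 10x library. Flt1 was lower with a ratio of 0.330 (0.251 to 0.429), Kdr with 0.320 (0.226 to 0.446), Flt4 with 0.134 (0.0559 to 0.277) and Tie1 with 0.203 (0.114 to 0.340). So 6 of the 10 genes passed 2-fold, while 20.6% of 14690 genes matched by identifier were higher, 38.4% lower and 59.1% either, and the count of the 10 genes was near this background. Vegfa had a ratio of 1.61 (1.46 to 1.78), and for Vegfc, Angpt2 and Tek the interval held equality.

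In some classes this difference was not detectable at this depth, and in others it was. Vegfa in Plin1-only nuclei had a ratio of 1.14 (0.972 to 1.34) and Flt1 in Pecam1-only nuclei of 1.18 (0.623 to 2.15), both holding equality. Kdr in Pecam1-only nuclei had 0.513 (0.208 to 1.11). In Plin1-only nuclei Flt1 had 0.261 (0.0671 to 0.733), Kdr 0.239 (0.0269 to 0.998) and Tie1 0.143 (0.00341 to 0.932), all below equality. These rest on 4, 2 and 1 UMIs in 10x. Flt4 in Pecam1-only nuclei had 0.135 (0.00325 to 0.85), from 1 UMI in 10x. Vegfa was 6.65-fold higher in Pdgfra-only and 4.94-fold higher in Notch3-only nuclei, from 17 and 5 UMIs in 10x, both off equality. Flt1, Kdr, Flt4 and Tie1 held equality in Pdgfra-only and Notch3-only nuclei. For Angpt1 and Vegfb the difference was also present in Plin1-only nuclei, at 3.75 (2.49 to 5.71) and 3.50 (2.05 to 6.08). Pecam1-only nuclei were 2.38% of the nuclei of the 10x library and 5.88% of those of the Parse library. Such shares also fall at lower depth, which leaves more nuclei without a class marker. They therefore do not measure how many endothelial cells were present.

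The shares of gene pairs given above were read across libraries and not as one gene above another, and levels of different genes were set side by side per kilobase of gene span, in the rat Parse libraries. Vegfa had the highest level per kb of the 10 genes, with 97.7 CPM per kb in taPVAT, 89.5 in BAT, 30.0 in mesPVAT and 14.5 in RP fat. Vegfb, with the shortest span (5.685 kb), followed in taPVAT and BAT (8.28 and 8.60) as it did in mesPVAT (4.03). In RP fat it had 2.5 from 12 UMIs, close to Tie1 with 2.47. Whether UMIs scale with gene span was not tested. Among receptors, Kdr had 4.05 and Tie1 4.48 CPM per kb in BAT. The other 6 genes were at most 1.96 in any of the 4 libraries.

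Other genes of the pathway were read from a list of 25 genes, of which 24 had a row by that symbol in the Parse rat annotation (all but Egln1). Between brown and white rat depots 6 were higher, 5 lower and 13 neither, beside 4.87% of all genes higher and 50.6% lower. Among genes with at least 200 UMIs, which the 6 higher ones all had, these shares were 12% and 17%. Higher were the coactivators Ppargc1b (9.98-fold) and Ppargc1a (2.03-fold), which can induce Vegfa, their partner Esrra (5.63-fold), the co-receptor Nrp1 (3.35-fold), and the hypoxia factors Arnt (2.88-fold) and Hif1a (2.05-fold). Ppargc1b stood at 1784 CPM in taPVAT and 2309 in BAT, against 179 in Parse mesPVAT and 143 in RP fat. Lower were the hypoxia factor Hif3a (0.217) and the antiangiogenic matrix protein Thbs1 (0.163). The placental growth factor Pgf (0.367) and the response genes Apln (0.401) and Esm1 (0.420) were lower by the ratio only. They had 4 to 7, 2 to 9 and 4 to 8 UMIs per rat Parse library. Their Poisson intervals in BAT overlapped those in Parse mesPVAT and RP fat.

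In the other comparisons fewer of these pathway genes passed 2-fold, the 10x comparison apart. Between taPVAT and BAT 2 of 24 were higher and 1 lower by the ratio, with Egln3 (2.76-fold, 1.39 to 5.79), an oxygen sensor, and Angpt4 (2.48-fold, 1.63 to 3.83) higher, beside 11% of all genes in either direction. The endothelial peptide Apln had a ratio of 0.275 whose interval (0.0289 to 1.33) held equality. Between Parse mesPVAT and RP fat 3 of 23 passed 2-fold upward and 0 downward, beside 19.6% of all genes in either direction. Of these, Thbs1 had 2.04 (1.54 to 2.74), and the intervals of Vegfd (2.17, 0.707 to 8.86) and Aplnr (2.04, 0.551 to 11.3) held equality. Between the 10x and Parse libraries of mesPVAT 4 of 23 were higher and 10 lower, near the 59.1% of all genes in either direction. The higher ones included the protease Adamts1 (10.4-fold) and the lower ones the hypoxia factor Epas1 (0.248) and the Tek phosphatase Ptprb (0.269).

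Finally, the genes most like each of the 10 in their pattern were found over 12 sums, the 4 classes of taPVAT, BAT and cow WAT, among 6094 genes. For Kdr they were Ptprb (Pearson r of log2 CPM 0.994), Arhgef15 (0.979) and Shank3 (0.976), and for Tie1 Shank3 (0.984), Ptprb (0.982) and Nos3 (0.972), the endothelial nitric oxide synthase. Flt1 was most like Ablim3 (0.980), Ptprb (0.974) and Lrrc3b (0.973), and Tek most like Cep85l (0.964), Galnt18 (0.961) and Nrep (0.952). Vegfa was most like Optn (0.964), Pcyt2 (0.953) and Sppl2b (0.95), and Vegfb most like Oplah (0.951), Trib1 (0.945) and Gss (0.942). Flt4 (Nav1, 0.924) and Angpt1 (Trmu, 0.803) had weaker matches, and Vegfc and Angpt2 had too few UMIs in a library. The sums share libraries and depth, so these values describe likeness only.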

How the data were processed

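Single-nucleus RNA-seq of 6 adipose libraries was used. The authors deposited raw UMI counts per gene and nuclear barcode, with 1 matrix per library, and no value was normalized. Per the study's methods, Parse reads were aligned with split-pipe, rat reads to GRCr8, and 10x reads with Cell Ranger. Depth was 845316 to 16827260 UMIs per library, and 3 UMIs correspond to 0.178 (cow WAT) to 3.55 CPM (RP fat).

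Every deposited barcode was kept, and doublets were not removed. The study's filters (100 to 15000 UMIs, no more than 4500 genes or 3% mitochondrial UMIs, and values within 5 median absolute deviations) would leave 5084 of 5887, 3011 of 3028, 2602 of 2805, 2637 of 2708, 2627 of 2699 and 2008 of 2297 nuclei, from 10x mesPVAT to cow WAT. UMIs were summed over nuclei and given as CPM of all UMIs. Intervals (95%) were exact Poisson for levels, exact Clopper-Pearson for shares and exact conditional for ratios. A ratio counted as changed from 2-fold, over genes with at least 10 UMIs in the compared libraries. Marker-list classes took the list with the most UMIs in a nucleus, at least 2 and without a tie. The vessel split of endothelial nuclei used the lower limit given with it. Cow and rat levels were set side by side without a fold.

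The genes, lists and comparisons were chosen with earlier results of these data known. The genes named were the 10 members, the pathway genes past 2-fold (examples in the 10x comparison) and the 3 most alike per member where given. The vessel split and the alternatives without the top nucleus, with median-of-ratios scaling or with a background of genes from 200 UMIs were chosen after seeing the data. The scripts were tested on simulated data. Python 3.11.15, numpy 2.4.6, scipy 1.17.1, pandas 2.3.3 and matplotlib 3.10.9 were used, and RefSeq GRCr8 gave coordinates and promoters by symbol.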

Additional observations from a re-analysis of the deposited data

Results flagged for a closer look

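Kdr had opposite directions in the comparisons of a perivascular with another depot of the same colour. Its ratio was 0.827 for taPVAT over BAT and 1.52 for Parse mesPVAT over RP fat, each interval on its own side of equality. This was not particular to Kdr. The endothelial markers Ptprb (0.811 and 1.55) and Cdh5 (0.851 and 1.97) had the same directions, also with intervals off equality. Flt1, Tek and Tie1 had these directions too, but their intervals for Parse mesPVAT over RP fat held equality. With 1 library per depot the difference between these ratios was not tested.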

How the results depend on the processing

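No paired analysis was possible because each condition had 1 library and no test was run. No ratio changed direction while past 2-fold under any alternative. The count of genes past 2-fold between Parse mesPVAT and RP fat was 1. It was 2 with nuclei of at least 500 UMIs, 0 with sublibrary 1 alone, 2 with sublibrary 2 alone, 5 at a fold of at least 1.5 and 0 with median-of-ratios scaling, where Vegfa had 1.96. The count highest in Pecam1-only nuclei of 10x mesPVAT was 2. It was 4 with classes by marker lists and 1 with the study's filters. In RP fat it was 4, and 2 with either sublibrary alone. The other counts stayed within 1.5 times of the reported ones. Median-of-ratios scaling moved the 10x ratios by -0.34 on the log2 scale, so that Angpt1 had 1.85 and did not pass 2-fold, and it gave Vegfb 1.94 and Flt4 0.492 between brown and white depots. Of 60 library levels, 8 moved beyond counting error with the study's filters, 14 with nuclei of at least 500 UMIs, 22 when the gene with the most UMIs and mitochondrial genes left the total, and 0 without the top nucleus. Thinning to 200 UMIs moved 48 of 60 shares. Class levels depended on how classes were set. When a class allowed UMIs of the other markers, 77 class levels moved and 163 did not. With classes by marker lists 54 moved and 186 did not, and with the study's filters 8 and 232. In the Parse libraries 28 moved and 172 did not with sublibrary 1 alone, and 31 and 169 with sublibrary 2 alone. The 10x and RP fat libraries limit the class values, many of which rest on fewer than 20 UMIs.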

Other observations

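Angpt2 had 314 CPM in the cow WAT endothelial nuclei with mostly lymphatic markers, from 12 UMIs, and Flt4 had 209 there from 8 UMIs. Vegfc had 26.1 CPM in the same nuclei, from 1 UMI in 15 nuclei. These values were noticed after the vessel split was made, and no comparison was run on them. Vegfd, a further ligand of Flt4, stood at 78.1 CPM in cow WAT.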
